A study of Mus musculus with 18 samples.

Results

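Igf2, H19 and the genes of the insulin-like growth factor (IGF) pathway were followed across all 18 RNA-Seq libraries of the series. The set holds 10 genes (Igf2, H19, Igf1, Igf1r, Igf2r, Igfbp2, Igfbp3, Igfbp4, Igfbp5 and Insr) of the 55469 genes with usable values, taken by gene symbol, and all 10 had a row in every library. The set was selected with measured values of these libraries in view. The differences between the 2 media are therefore described for all 10 genes without a test, and Igf2 is described without a test throughout. Only the change of these differences between days was tested, for genes other than Igf2, and the same limit holds there.

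The study asked whether continuous expression of the 4 reprogramming factors abbreviated OSKM (Oct4, Sox2, Klf4, and the oncogene c-Myc) can maintain and induce pluripotency without added growth factors or inhibitors. OSKM-ESCs were embryonic stem cells moved from 2iL (MEK inhibitor, GSK3 inhibitor and LIF in N2B27 medium) to N2B27 with doxycycline (DOX), and 2iL-ESCs stayed in 2iL, each with 2 cultures at days 18, 25 and 38. Both came from 1 Tet-On-OSKM/Oct4-GFP line with M2rtTA in the Rosa26 locus, a single polycistronic OSKM cassette in the Col1a1 locus and a GFP reporter driven by the Oct4 distal promoter, on a strain background made by crossing (C57BL/6 x 129S4/SvJae)F1 mice with F2 mice of CBA/CaJ and C57BL/6J, so the 2iL-ESCs carried the cassette too but received no DOX. OSKM-iPSC clones 1 and 3, at passages 7 and 6, were reprogrammed and kept in N2B27 with DOX. 2iL-iPSC clones 3 and 6, at passages 2 and 3, were reprogrammed in 2iL with DOX and, by the study's methods, kept in 2iL without it, whereas the sample labels give N2B27 + DOX for their routine culture. The clones and the 2 libraries of mouse embryonic fibroblasts (MEF cells, passage 4, DMEM plus 10% FBS) had the strain (C57BL/6 x 129S4/SvJae)F1. Each iPSC library is 1 clone, passage goes with medium in the iPSCs, and strain and origin go together between ESCs and iPSCs. By the study's methods the ESC line was derived and grown on MEF feeder cells treated with mitomycin C, and the fibroblasts to be reprogrammed were seeded on feeder cells. Nothing in the labels says that same-group cultures were independent, so the p-values measure the spread between these libraries.

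Igf2 is a secreted growth factor of the embryo and placenta. H19 is a long non-coding RNA transcribed next to it. The pair is imprinted: Igf2 is normally transcribed from the paternal chromosome and H19 from the maternal one, under a shared control region that binds CTCF when unmethylated. IGF1 and IGF2 signal through the receptor tyrosine kinase Igf1r and, for IGF2, through the insulin receptor Insr, while Igf2r, itself imprinted in the mouse, carries IGF2 to lysosomes. The binding proteins Igfbp2 to Igfbp5 hold IGFs outside the cell. These libraries do not separate the parental alleles.

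H19 lies at chr7:142575529-142578143 on the minus strand of GRCm38 and is annotated as a lincRNA with 7 transcripts. Igf2 lies on the same strand at chr7:142650766-142666816, a protein-coding gene with 9 transcripts. It is overlapped on its own strand by Gm49394 and on the opposite strand by the antisense gene Igf2os, and the library kit did not mark strand, so reads from these partners cannot be told apart. The same holds for Igf2r (chr17:12682406-12769664) and its antisense neighbour Airn. Each gene of the imprinted pair hosts a miRNA, shown here because these small RNAs are processed from within this imprinted pair. The Mir675 hairpin (chr7:142577064-142577147) lies within an exon in 3 of the 7 H19 transcripts, and the Mir483 hairpin (chr7:142654924-142654996) lies inside Igf2 but in an exon of none of its 9 transcripts. The mature sequences, 5′ to 3′ from RefSeq on GRCm38.p6, have the seed (bases 2 to 8) in capitals, and no seed is shared among the 4.
mmu-miR-675-5p: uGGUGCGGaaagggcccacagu
mmu-miR-675-3p: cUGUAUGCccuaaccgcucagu
mmu-miR-483-5p: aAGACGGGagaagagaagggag
mmu-miR-483-3p: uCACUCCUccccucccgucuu
Poly(A) RNA libraries do not measure mature miRNAs, and the values below are those of the host genes.

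Promoter sequences are shown for Igf2 and for Igfbp3, the one of the 7 members compared whose levels were most like those of Igf2 across ESC and iPSC libraries. RefSeq windows (250 bases before to 50 after a start) were found for 8 of the 10 genes, 12 windows in all, with no entry for H19 or Insr. Igf2 has 4 such starts. The one farthest upstream, at chr7:142666767-142667066 on the minus strand of GRCm38.p6, holds 2 CpG dinucleotides and is 52.3% GC. The one farthest downstream, at chr7:142657447-142657746, holds 7 CpGs and is 63.3% GC. The single Igfbp3 window, at chr11:7213874-7214173 on the minus strand, holds 37 CpGs and is 71.7% GC, against a median of 7 CpGs and 52.7% GC over all 32851 windows. Some motifs were searched on both strands (their matches in capitals): the GC box GGGCGG, found in 35.7% of all windows, the TATA box TATAAA, found in 13.6%, and the E-box CACGTG, found in 7.15%. None overlapped another in these windows.
Igf2, upstream start: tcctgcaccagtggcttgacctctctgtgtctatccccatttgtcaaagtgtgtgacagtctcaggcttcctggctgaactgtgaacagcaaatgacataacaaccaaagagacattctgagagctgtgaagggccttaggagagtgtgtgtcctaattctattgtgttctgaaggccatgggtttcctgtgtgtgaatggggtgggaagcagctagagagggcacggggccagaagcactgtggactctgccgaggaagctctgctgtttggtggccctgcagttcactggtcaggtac
Igf2, downstream start: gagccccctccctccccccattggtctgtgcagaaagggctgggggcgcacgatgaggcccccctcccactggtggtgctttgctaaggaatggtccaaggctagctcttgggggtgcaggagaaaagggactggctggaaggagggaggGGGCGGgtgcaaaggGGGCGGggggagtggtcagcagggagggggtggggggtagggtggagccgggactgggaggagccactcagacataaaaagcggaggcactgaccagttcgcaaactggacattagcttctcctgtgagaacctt
Igfbp3: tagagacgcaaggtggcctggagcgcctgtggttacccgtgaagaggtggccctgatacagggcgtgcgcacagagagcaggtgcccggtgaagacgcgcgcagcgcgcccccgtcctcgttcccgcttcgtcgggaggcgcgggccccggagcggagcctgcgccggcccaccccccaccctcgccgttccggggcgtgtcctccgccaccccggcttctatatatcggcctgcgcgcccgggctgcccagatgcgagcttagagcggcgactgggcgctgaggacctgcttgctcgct
The downstream Igf2 window had 2 GC boxes. No match stood in the upstream Igf2 window or in the Igfbp3 window. The deposited values are per gene and do not show which start was used.

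Values are FPKM (fragments per kilobase of transcript mapped, scaled to library size), which the authors computed with StringTie. The files give no read counts, so depth in reads is unknown; 11305 to 12097 genes per library had an FPKM over 1. The 10 pluripotent cell markers summed to 1095 to 2002 FPKM in OSKM-ESCs and OSKM-iPSCs and 3030 to 3512 FPKM in 2iL-ESCs and 2iL-iPSCs. Among them, Pou5f1 (Oct4) and Sox2 pool reads of the cassette and of the endogenous genes. In MEF cells these markers summed to 1.15 to 2.06 FPKM, while the 24 fibroblast markers summed to 5213 to 5462 FPKM. In a bulk library, more cells of a type and more RNA per cell cannot be told apart.

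Igf2 was high in OSKM cultures and near 0 in 2iL cultures. The OSKM-ESC cultures had 34.7 and 41.1 FPKM at day 18, 14.5 and 16.1 FPKM at day 25, and 35.6 and 37.0 FPKM at day 38. The 2iL-ESC cultures had 0.672 and 0.0642 FPKM at day 18, 0.486 and 0.394 FPKM at day 25, and 0.675 and 0.953 FPKM at day 38. Every OSKM-ESC culture was above every 2iL-ESC culture, and the mean was 103-fold, 34.8-fold and 44.6-fold higher at days 18, 25 and 38. The folds rest on 2iL values that were all below 1 FPKM and, at day 18, far apart from each other. Over the 6 cultures of each medium, Igf2 averaged 29.8 FPKM in OSKM-ESCs and 0.541 FPKM in 2iL-ESCs. The cultures of day 25 were the low ones among OSKM-ESCs and did not overlap with those of the other days.

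The iPSC clones fell on the same sides. Igf2 was at 62.2 FPKM in OSKM-iPSC clone 1 and 21.7 FPKM in clone 3, against 2.22 FPKM in 2iL-iPSC clone 3 and 0.580 FPKM in clone 6. The OSKM-iPSC mean was 30.0-fold higher. The 2 OSKM-iPSC clones lay on either side of the OSKM-ESC cultures of days 18 and 38. MEF cells exceeded every pluripotent library, with 1123 and 1159 FPKM. In order of group means, MEF cells stood first, then OSKM-iPSCs, OSKM-ESCs of day 18, day 38 and day 25, 2iL-iPSCs, and 2iL-ESCs of day 38, day 25 and day 18. Neighbours in this order overlapped at 4 of the 8 steps (OSKM-iPSCs with OSKM-ESCs of day 18, these with day 38, 2iL-iPSCs with 2iL-ESCs of day 38, and 2iL-ESCs of day 25 with day 18).

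H19 followed the medium as well but was far higher in iPSCs than in ESCs. In OSKM-ESCs it was at 20.4 and 20.0 FPKM at day 18, 12.1 and 11.1 FPKM at day 25, and 9.03 and 8.17 FPKM at day 38. In 2iL-ESCs it was at 2.55 and 3.46 FPKM at day 18, 1.24 and 1.143 FPKM at day 25, and 1.57 and 1.83 FPKM at day 38. All 6 OSKM-ESC cultures stood above all 6 2iL-ESC cultures, with a 6.72-fold, 9.75-fold and 5.05-fold higher mean at the 3 days. OSKM-iPSC clones 1 and 3 had 337 and 917 FPKM, 2iL-iPSC clones 3 and 6 had 44.5 and 16.1 FPKM, and MEF cells had 2222 and 1696 FPKM. Clone 3 of the OSKM-iPSCs, the one with less Igf2, was the one with more H19. Among the 9 groups in order of their means (MEF cells, OSKM-iPSCs, 2iL-iPSCs, OSKM-ESCs of days 18, 25 and 38, 2iL-ESCs of days 18, 38 and 25), only 2iL-iPSCs and OSKM-ESCs of day 18 overlapped with each other.

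**Figure D1:**
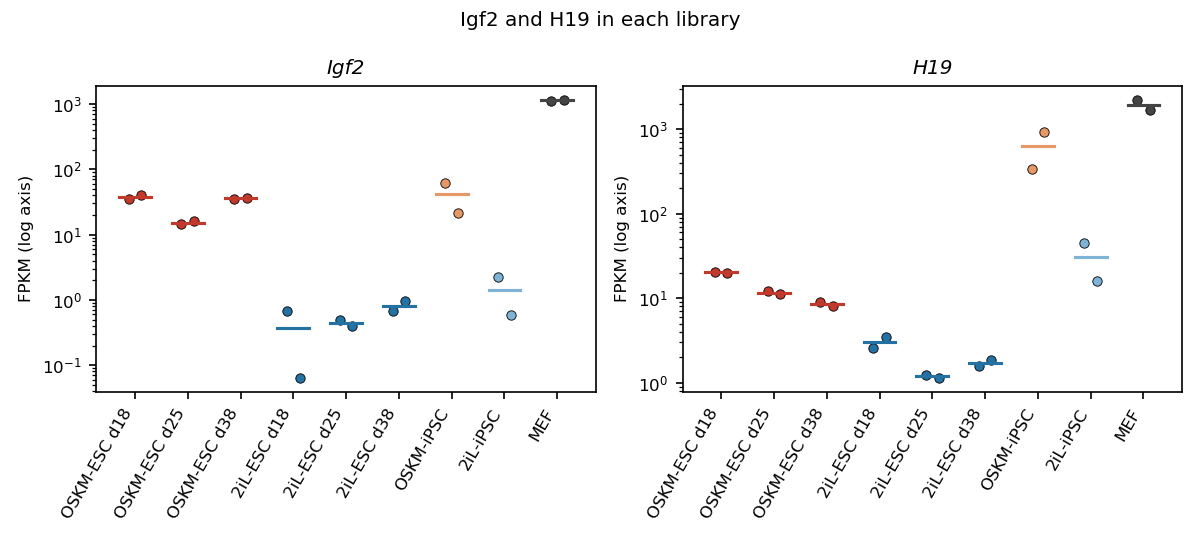
Igf2 and H19 in FPKM (log axis) in each of the 18 libraries, grouped by medium, day and cell type; points are libraries and bars are means of 2. Igf2 separates OSKM from 2iL libraries in ESCs and iPSCs, and H19 in addition is at 337 and 917 FPKM in the OSKM-iPSC clones, against 8.17 to 20.4 FPKM in OSKM-ESCs.

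The ratio of Igf2 to H19 separated ESCs from iPSCs within OSKM cultures. Igf2 was 1.20 to 4.53 times H19 in the 6 OSKM-ESC cultures, highest at day 38 (3.94 and 4.53), and 0.184 and 0.0236 times H19 in OSKM-iPSC clones 1 and 3. The ratio was 0.0186 to 0.520 in 2iL-ESCs, 0.0499 and 0.0360 in 2iL-iPSC clones 3 and 6, and 0.505 and 0.683 in MEF cells. Mean coverage per FPKM differs between genes in these files, so the ratio is read between libraries and not as a ratio of molecules.

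Because MEF cells held so much Igf2 and H19, their levels were set beside those of 24 fibroblast markers (collagens such as Col1a2 and Col3a1, Postn, Thy1, Lox, Prrx1 and others), each as a percent of its MEF mean. The marker median was 0.945% to 1.80% in OSKM-ESCs, 0.124% to 0.305% in 2iL-ESCs, 4.77% in OSKM-iPSC clone 1, 0.136% in OSKM-iPSC clone 3, and 0.0877% and 0.0143% in 2iL-iPSC clones 3 and 6. In ESCs the fibroblast markers moved with the medium: 18 of the 24 were called higher in OSKM-ESCs than in 2iL-ESCs and none lower (19 tested, limma, adjusted p under 0.05), where 29.5% of all genes tested were called higher. In iPSCs 0 of the 20 tested were called by limma (2 at an unadjusted p under 0.05), where 7.96% of all genes were called. The median log2 difference of the markers tested was 1.40 in iPSCs and 1.06 in ESCs. SEs in iPSCs reached 1.53 (Col1a2), so the lack of calls there does not show equal levels. Summed over the list they reached 46.8 to 70.8 FPKM in OSKM-ESCs, 9.51 to 12.4 FPKM in 2iL-ESCs, 14.8 and 191 FPKM in the OSKM-iPSC clones and 6.87 and 9.50 FPKM in the 2iL-iPSC clones. In 2iL-iPSC clones 3 and 6, 8 and 10 of the 24 markers were at 0.

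Igf2 stood at 3.04% and 3.599% of its MEF mean in OSKM-ESCs of day 18 and at 3.12% and 3.24% at day 38, above the marker median of each library. At day 25 it stood at 1.27% and 1.41%, below the medians of 1.80% and 1.66%. Between 4 and 14 of the 24 markers were at a higher percent than Igf2 in each OSKM-ESC culture. In OSKM-iPSC clone 1 Igf2 stood at 5.45% beside a median of 4.77%, and in clone 3 at 1.90% beside a median of 0.136%, where only 3 markers were higher. In 2iL-ESCs Igf2 was at 0.00562% to 0.0835%, below the marker median in all 6 cultures.

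H19 lay below the marker median in all 12 ESC libraries, at 0.417% to 1.04% of its MEF mean in OSKM-ESCs and 0.0584% to 0.176% in 2iL-ESCs. It lay above the marker median in all 4 iPSC clones: at 17.2% in OSKM-iPSC clone 1, where 1 marker was higher, at 46.8% in OSKM-iPSC clone 3, where none was, and at 2.27% and 0.822% in 2iL-iPSC clones 3 and 6. In OSKM-iPSC clone 3, 4 of the 24 markers were at 0, Prrx1 and S100a4 among them, and 5 were over 1 FPKM: Mmp2 (3.25), Thy1 (2.76), Twist1 (2.00), Col5a1 (1.73) and Loxl1 (1.18). Its highest marker stood at 7.76% of the MEF mean.

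**Figure D2:**
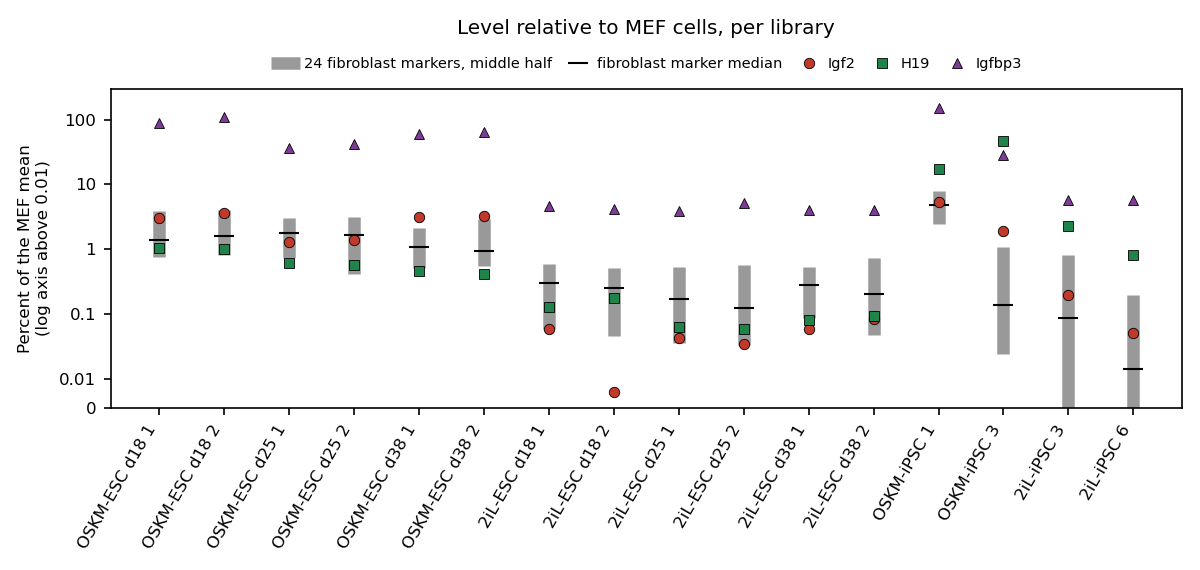
Igf2, H19 and Igfbp3 in each ESC and iPSC library as a percent of the MEF mean (log axis above 0.01%), beside the median (black bar) and the quartile range (grey) of 24 fibroblast markers. H19 is under the marker median in all 12 ESC libraries and over it in all 4 iPSC clones, and Igfbp3 is over that range in all 16.

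Taking the marker median, as a share of the MEF level, off each library left Igf2 at 18.6 and 22.6 FPKM in OSKM-ESCs of day 18, 0 in both of day 25, and 23.4 and 26.2 FPKM in those of day 38. It left 0 in all 6 2iL-ESC cultures. In the OSKM-iPSC clones 7.78 and 20.1 FPKM of Igf2 were left, and in the 2iL-iPSC clones 1.22 and 0.417 FPKM. The difference between media then came to 3.04 in ESCs and 2.94 in iPSCs on the log2(FPKM + 1) scale, from 4.24 and 4.07 before. The same step left no H19 in any ESC library, and 244 and 914 FPKM in OSKM-iPSC clones 1 and 3. The part of feeder or remaining fibroblast RNA in the Igf2 and H19 of the ESC libraries was not tested beyond these values.

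Of the 10 genes, 4 lay higher in every OSKM-ESC culture than in every 2iL-ESC culture (Igf2, H19, Igfbp3 and Igfbp5), where 14.6% of all genes tested did, and 8 lay higher in the OSKM-iPSCs than in the 2iL-iPSCs with no overlap of the clones, where 37.2% of all genes did. These are the comparisons the set was chosen on, and nothing is read from the counts.

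Igfbp3, the main carrier of IGFs in the circulation, was the binding protein most like Igf2. It was at 52.8 and 66.7 FPKM in OSKM-ESCs at day 18, 22.2 and 25.7 FPKM at day 25, and 36.6 and 38.4 FPKM at day 38, against 2.32 to 3.07 FPKM in the 6 2iL-ESC cultures. OSKM-iPSC clones 1 and 3 had 90.5 and 17.3 FPKM, 2iL-iPSC clones 3 and 6 had 3.48 and 3.46 FPKM, and MEF cells had 70.1 and 50.04 FPKM. OSKM cultures of day 18 and clone 1 thus reached the MEF level. Igfbp3 was at 37.0% to 111% of its MEF mean in OSKM-ESCs, and no fibroblast marker was at a higher percent in any of these 6 cultures. The means differed 15.6-fold between media in ESCs and 15.5-fold in iPSCs.

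Igfbp2, a binding protein of fetal tissues, showed the opposite order between pluripotent cells and MEF cells. It was at 174 to 258 FPKM in OSKM-ESCs and 125 to 366 FPKM in 2iL-ESCs. OSKM-iPSC clones 1 and 3 had 316 and 243 FPKM, and 2iL-iPSC clones 3 and 6 had 170 and 212 FPKM. MEF cells had only 21.5 and 15.6 FPKM. In 2iL-ESCs it was lowest at day 18 (125 and 126 FPKM) and highest at day 25 (363 and 366 FPKM).

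Igfbp4 and Igfbp5 were low in most pluripotent libraries. Igfbp4 was at 3.06 to 4.13 FPKM in OSKM-ESCs of days 18 and 25, 10.4 and 10.6 FPKM at day 38, and 1.04 to 4.43 FPKM in 2iL-ESCs. Igfbp5 was at 0.942 to 1.29 FPKM in OSKM-ESCs of days 18 and 25 and 4.97 and 4.82 FPKM at day 38, but never above 0.565 FPKM in 2iL-ESCs. Both stood apart at day 38 from the earlier days in OSKM-ESCs. MEF cells had 20.4 and 18.4 FPKM of Igfbp4 and 40.6 and 33.4 FPKM of Igfbp5. In the OSKM-iPSCs, clone 1 had 9.94 FPKM of Igfbp4 and 3.33 FPKM of Igfbp5, above the 3.13 and 0.457 FPKM of clone 3.

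Of the receptors, Igf1r and Insr were higher on average in OSKM than in 2iL cultures in both ESCs and iPSCs, while the Igf2r mean was 0.908 times that of 2iL in ESCs and 1.10 times in iPSCs. Igf1r was at 2.22 and 2.58 FPKM in OSKM-ESCs at day 18, 4.02 and 4.01 FPKM at day 25, and 5.28 and 5.55 FPKM at day 38, beside 1.18 to 2.44 FPKM in 2iL-ESCs. OSKM-iPSC clone 1 had 7.10 FPKM and clone 3 had 2.57 FPKM, 2iL-iPSCs had 1.76 and 1.495 FPKM, and MEF cells had 13.3 and 13.8 FPKM. Insr ranged from 2.50 to 5.71 FPKM in OSKM-ESCs and from 1.58 to 3.799 FPKM in 2iL-ESCs. It was at 3.50 and 4.24 FPKM in OSKM-iPSCs and 1.21 and 1.71 FPKM in 2iL-iPSCs. MEF cells had 5.14 and 4.81 FPKM of Insr, a level that OSKM-ESCs of day 38 (5.71 and 4.79 FPKM) were near. Igf2r was at 9.43 to 14.1 FPKM in OSKM-ESCs, 8.79 to 16.8 FPKM in 2iL-ESCs and 12.7 to 15.5 FPKM in the 4 iPSC clones, and at 99.8 and 98.4 FPKM in MEF cells. Igf1, the other ligand, was at most 0.226 FPKM in every ESC and iPSC library and at 3.93 and 5.78 FPKM in MEF cells, so it entered only the comparisons with MEF cells.

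**Figure D3:**
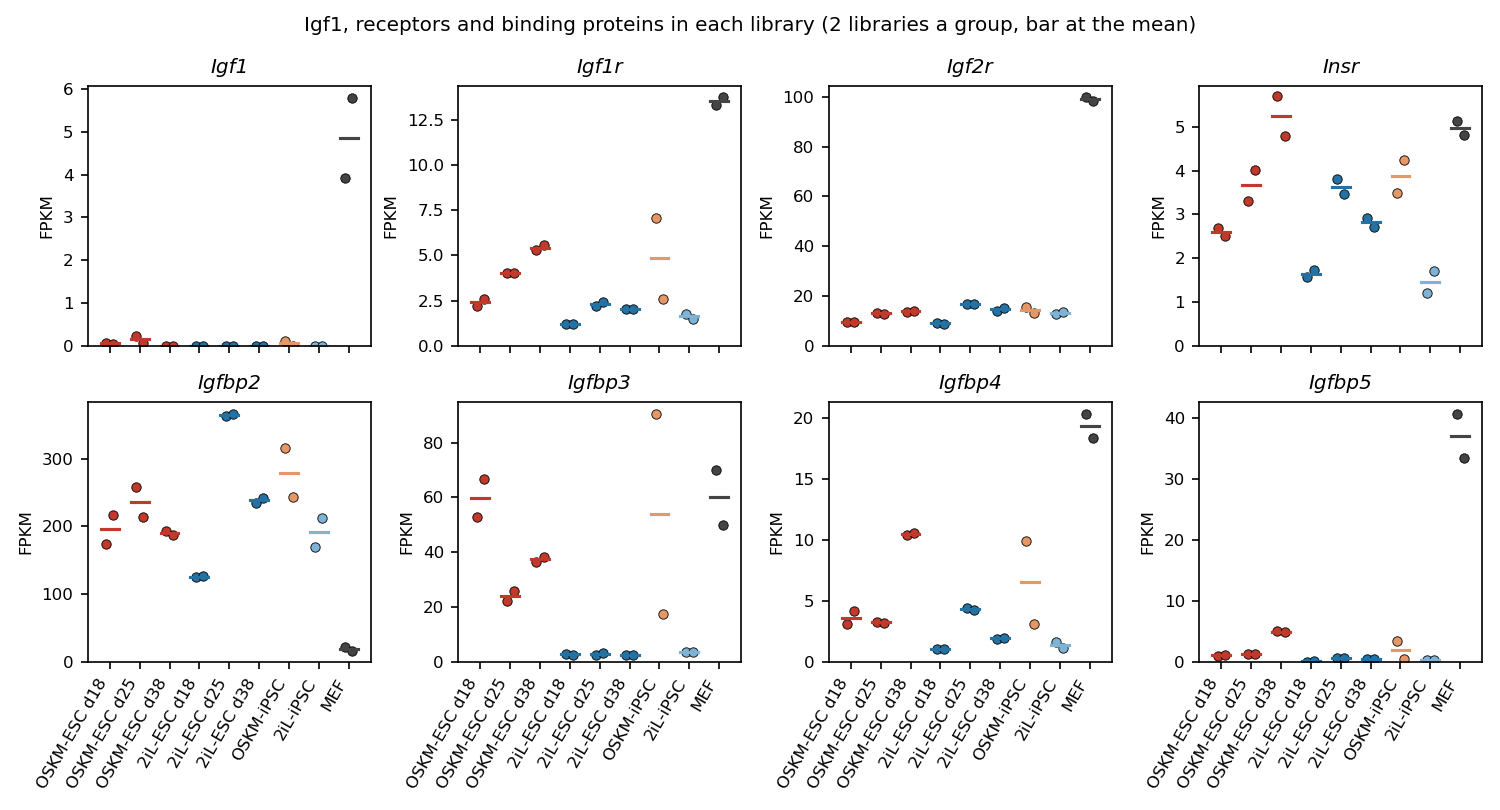
FPKM of Igf1, the receptors and the binding proteins in each of the 18 libraries on linear axes from 0, with bars at the mean of 2 libraries. Igfbp2 is the gene at its lowest in MEF cells, and Igfbp4 and Igfbp5 are highest among ESC cultures in OSKM-ESCs of day 38.

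Changes with time in OSKM-ESCs were tested with limma's moderated F test over days 18, 25 and 38 (log2(FPKM + 1), Benjamini-Hochberg adjusted p under 0.05 over all genes tested). Of the 9 genes other than Igf2, 8 were tested (Igf1 was too low) and 7 were called, where 38.6% of all genes tested were. H19 fell from day 18 to day 38 (log2 difference of -1.143, adjusted p = 0.0013). Igfbp3 was lower at day 38 than at day 18 (-0.65, adjusted p = 0.0022), with its lowest values at day 25. Igfbp5 (1.53, adjusted p = 0.00066), Igfbp4 (1.33, adjusted p = 0.0010), Igf1r (0.92, adjusted p = 0.0042), Insr (0.79, adjusted p = 0.013) and Igf2r (0.50, adjusted p = 0.015) rose from day 18 to day 38. Igfbp2 was not called (adjusted p = 0.20). Igf2r was no longer called without OSKM-ESC culture 1 of day 18 (adjusted p = 0.052) or without either culture of day 38 (adjusted p = 0.079 and 0.087), nor Insr without culture 1 of day 38 (adjusted p = 0.090).

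Mesoderm markers moved with the rise at day 38. T (Brachyury) was at 194 and 198 FPKM at day 38, against 34.3 and 48.9 FPKM at day 18 and 13.8 and 13.3 FPKM at day 25, and Tbx6 was at 14.8 and 13.3 FPKM at day 38 and at most 0.507 FPKM earlier. The 10 mesoderm markers summed to 214 and 217 FPKM at day 38, 36.7 to 50.9 FPKM at day 18, 14.2 to 14.8 FPKM at day 25 and 2.36 to 7.15 FPKM in 2iL-ESCs. Foxf1 and Hand2 were at or near 0 in all of them. Without day 38, the difference between media was 0.41 in place of 0.93 for Igfbp4, 0.74 in place of 1.18 for Igfbp5, 0.22 in place of 0.38 for Insr, 0.61 in place of 0.77 for Igf1r and 4.18 in place of 4.24 for Igf2 (log2 scale). The part of such cells in the values of day 38 was not tested.

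In 2iL-ESCs the same test called 6 of the 7 genes tested (Igf1 and Igfbp5 were too low), where 50.8% of all genes were called. Igfbp2 changed most, with a log2 difference of 0.92 between days 38 and 18 (adjusted p = 5.5e-05) and its peak at day 25. Igf2r (0.64, adjusted p = 0.00092), Insr (0.53, adjusted p = 0.0034), Igfbp4 (0.51, adjusted p = 0.00064) and Igf1r (0.47, adjusted p = 0.0099) rose from day 18 to day 38, all with their highest values at day 25. H19 fell (-0.56, adjusted p = 0.0092). Igfbp3 was not called (adjusted p = 0.82), at 2.46 FPKM in both cultures of day 38.

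Whether the difference between media depended on the day was tested as an interaction in the 12 ESC libraries. All 8 of the genes tested other than Igf2 were called, where 37.9% of all genes tested were, and 6 were called when cultures of 1 day were paired by number. The set was chosen with media differences of these libraries in view, so nothing is read from this count. For Igfbp4 (adjusted p = 3.0e-05) the difference, OSKM minus 2iL in log2(FPKM + 1), was 1.15 at day 18, -0.34 at day 25 and 1.98 at day 38. For Igfbp5 (adjusted p = 0.00020) it was 0.92, 0.55 and 2.06, and for Igfbp2 (adjusted p = 0.00076) 0.62, -0.63 and -0.33. For Igfbp3 (adjusted p = 0.0021) it was 4.06, 2.76 and 3.47, and for H19 (adjusted p = 0.019) 2.41, 2.52 and 1.83. Igfbp3 and H19 were thus higher in OSKM at each day by differing amounts, while Igfbp2, Igfbp4 and Igf2r changed sign between days, Igf2r with 0.07, -0.32 and -0.07. Insr (adjusted p = 0.021), Igf1r (adjusted p = 0.027) and Igf2r (adjusted p = 0.033) were closer to the threshold, and with the cultures paired Igf1r (adjusted p = 0.071) and Igf2r (adjusted p = 0.070) were not called. Leaving out OSKM-ESC culture 1 or 2 of day 38, or 2iL-ESC culture 2 of day 38, left 5 genes called, and H19 was not called without OSKM-ESC culture 2 (adjusted p = 0.080) or 2iL-ESC culture 2 (adjusted p = 0.078) of day 38.

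**Figure D4:**
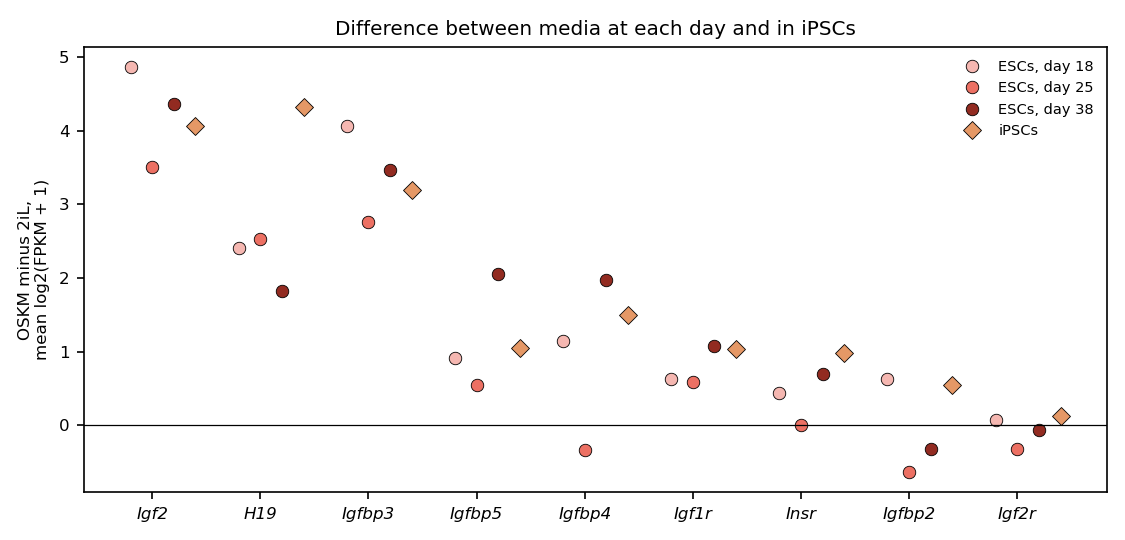
OSKM minus 2iL in mean log2(FPKM + 1) for 9 genes, at each day in ESCs (circles) and in iPSCs (diamonds), 2 libraries a group. Igf2 and Igfbp3 are at or above 2.76 in all 4 comparisons, H19 is highest in iPSCs at 4.32, and Igfbp4 and Igfbp2 are below 0 at day 25.

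Against MEF cells, the fibroblasts of origin, 8 of the 9 genes other than Igf2 were lower in 2iL-iPSCs and Igfbp2 was higher (limma, adjusted p under 0.05), where 37.4% of all genes tested were lower and 40.6% higher. H19 was lower by a log2 difference of -6.12 ± 0.48 (SE, n = 2 and 2, adjusted p = 0.00025), Igfbp5 by -4.96 ± 0.14 (adjusted p = 1.8e-05) and Igfbp3 by -3.75 ± 0.18 (adjusted p = 6.1e-05). Igfbp2 was higher by 3.30 ± 0.19 (adjusted p = 0.00011). In OSKM-iPSCs 5 were lower and 1 higher, where 26.4% of all genes were lower and 34.0% higher. H19 was lower by -1.80 ± 0.52 (adjusted p = 0.041) and Igf2r by -2.71 ± 0.12 (adjusted p = 0.0011), and Igfbp2 was higher by 3.85 ± 0.22 (adjusted p = 0.0013). Igfbp3 (-0.56, 95% interval from -2.79 to 1.68, adjusted p = 0.58), Insr (-0.30, adjusted p = 0.16) and Igfbp4 (-1.60, adjusted p = 0.0505) were not called. With either MEF library left out, 0 of the genes were called in OSKM-iPSCs, while all 9 calls in 2iL-iPSCs were kept in number.

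Within a medium, H19 was higher in iPSCs than in ESCs. OSKM-iPSCs had a mean of 627 FPKM and OSKM-ESCs 13.5 FPKM, a log2 difference of 5.35 ± 0.42 (SE, n = 2 and 6, limma adjusted p = 0.00017), and both clones were above all 6 cultures. H19 was the 1 gene called among the 8 tested other than Igf2, where 1.88% of all genes were called and 1.27% were higher. 2iL-iPSCs had a mean of 30.3 FPKM and 2iL-ESCs 1.97 FPKM, a log2 difference of 3.28 ± 0.38 (adjusted p = 0.0023). It was again the 1 gene called, of 7 tested, where 3.41% of all genes were called and 1.62% were higher. A single fit of all 9 groups called 3 genes in OSKM and 2 in 2iL. H19 kept both calls under each of the alternatives tried, with a highest adjusted p of 0.0025 in OSKM and 0.024 in 2iL. Of the fibroblast markers, none of the 20 tested was called by limma between OSKM-iPSCs and OSKM-ESCs (0 at an unadjusted p under 0.05), with SEs from 0.183 to 0.970. Their summed level was 191 FPKM in clone 1, above every OSKM-ESC culture, and 14.8 FPKM in clone 3, below every one. The part of fibroblast RNA in the H19 of clone 1 was not tested.

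The other genes were not called, and the intervals of several were wide. Igfbp3 differed by 0.08 (95% interval from -1.17 to 1.33) between OSKM-iPSCs and OSKM-ESCs, Igfbp4 by 0.15 (-1.01 to 1.31) and Igf1r by 0.17 (-0.63 to 0.97). Without OSKM-iPSC clone 1 these became -1.08, -0.55 and -0.42. Igf2, without a test, averaged 41.9 FPKM in OSKM-iPSCs and 29.8 FPKM in OSKM-ESCs.

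Markers of other cell types were uneven between the 2 OSKM-iPSC clones. The 10 trophoblast markers summed to 57.4 FPKM in clone 3 and 24.1 FPKM in clone 1, beside 8.80 to 34.2 FPKM in OSKM-ESCs and 6.44 and 9.72 FPKM in 2iL-iPSCs. In clone 3, Ascl2 was at 25.0 FPKM, Plac1 at 13.1 FPKM and Krt7 at 10.7 FPKM, while Prl3d1, a marker of giant cells, was at 0 and Elf5 at 0.231 FPKM. Cdx2 was also low in clones 1 and 3 (0.426 and 0.277 FPKM). Eomes, at 1.89 and 1.34 FPKM, was below every OSKM-ESC culture (2.555 to 5.97 FPKM). In OSKM-ESCs of day 38, where the sum was highest, Cdx2 was at 26.3 and 24.5 FPKM. Ascl2 is itself an imprinted gene of the same chromosome. Endoderm markers summed to 3.20 to 9.29 FPKM in OSKM libraries, 0.929 to 2.76 FPKM in 2iL libraries and 42.6 to 45.1 FPKM in MEF cells. Afp was at or near 0. Of the 5 tested between media in ESCs, limma called 2 higher in OSKM and 0 lower, where 29.5% of all genes were higher. These were Dab2 (1.21, adjusted p = 8.8e-07) and Foxa2 (1.01, adjusted p = 0.0042). Dab2 was at 7.08 FPKM in OSKM-iPSC clone 1, and at 34.9 and 37.8 FPKM in MEF cells. Of the 8 trophoblast markers tested between OSKM-iPSCs and OSKM-ESCs, 3 were higher by limma, where 1.27% of all genes were: Krt7 (2.39, adjusted p = 0.026), Plac1 (2.33, adjusted p = 0.045) and Hand1 (1.26, adjusted p = 0.029). The part of such cells in the H19 of the OSKM-iPSC clones was not tested.

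Across the 16 ESC and iPSC libraries, the 5 genes whose log2(FPKM + 1) was most like Igf2, of 10091 with an FPKM over 5 in some library, were Podxl (Pearson r = 0.985), Tpm1 (0.983), Arl4c (0.983), Parva (0.982) and Prmt2 (0.981), with Igfbp3 sixth (0.981). H19 was far down the same order (r = 0.622). Those most like H19 were 3830417A13Rik (0.949), Zfp386 (0.923), Btg2 (0.913), Hmgn2 (0.910) and Cpxm1 (0.899). Within the 8 OSKM libraries the nearest to Igf2 were Rcn2 (0.979), H2-D1 (0.9747) and Ano10 (0.973), with Igfbp3 at 0.884, and the nearest to H19 were Rpl34-ps1 (0.989), Gm3226 (0.989) and Gm12245 (0.989), which may share reads with near-identical copies. Over the 16 libraries these values mostly restate the groups, and the libraries share medium, cell type and strain.

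Within 250 kb of the H19 to Igf2 span, 13 of 25 listed genes exceeded 1 FPKM in some library. Lsp1 had the order of Igf2 between media, at 0.559 to 2.97 FPKM in OSKM-ESCs, at most 0.139 FPKM in 2iL-ESCs, 2.16 and 4.76 FPKM in OSKM-iPSCs, 0 in 2iL-iPSCs and 18.7 and 20.5 FPKM in MEF cells. Igf2os and Tnnt3 also lay higher in OSKM libraries with no overlap, in ESCs (where 14.6% of all genes did) and in iPSCs. Mir675, Tnni2, Mrpl23 and Ctsd did so in iPSCs only, where 37.2% of all genes did. Mrpl23 was at 52.0 and 59.9 FPKM in OSKM-iPSCs and 27.5 and 35.9 FPKM in 2iL-iPSCs. Ctsd was at 100.2 and 129 FPKM in OSKM-iPSCs and 88.9 and 93.4 FPKM in 2iL-iPSCs. Mrpl23, a mitochondrial ribosomal protein gene next to H19, was at 27.5 to 59.9 FPKM in all libraries. Ctsd, a lysosomal protease, was at 49.2 to 129 FPKM in pluripotent cells and 824 and 851 FPKM in MEF cells. The muscle troponin genes Tnnt3 and Tnni2 peaked in OSKM-iPSCs, Tnnt3 at 3.14 and 4.92 FPKM and Tnni2 at 1.68 FPKM in both clones, against at most 0.722 and 0.561 FPKM elsewhere. Th reached 2.51 FPKM in 1 OSKM-iPSC clone. Igf2os was at 0.463 to 1.54 FPKM in OSKM-ESCs, 0 in all 2iL-ESCs, 1.33 and 1.39 FPKM in OSKM-iPSCs and 3.50 and 3.85 FPKM in MEF cells. Mir675, the annotated hairpin within H19, was listed at 2.05 FPKM in OSKM-iPSC clone 3 and 0.809 FPKM in clone 1, at most 0.149 FPKM in 2iL-iPSCs and 6.35 and 9.19 FPKM in MEF cells. Ifitm10, Gm49369 and Mir483 were highest in MEF cells, except that Gm49369 reached 1.03 FPKM in OSKM-ESCs.

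Near Igf2r, 11 of 25 listed genes passed 1 FPKM. Airn, the antisense RNA that overlaps Igf2r, was at most 0.757 FPKM in OSKM-ESCs, 0.129 FPKM in 2iL-ESCs and 1.61 FPKM in an OSKM-iPSC clone, and 4.07 and 4.79 FPKM in MEF cells, where Igf2r was also highest. Sod2, the mitochondrial superoxide dismutase, was at 10.4 to 16.3 FPKM in OSKM libraries and 32.4 to 47.8 FPKM in 2iL libraries, and Pnldc1 at 2.72 to 7.13 and 9.34 to 12.8 FPKM. Wtap also lay lower in OSKM libraries, at 45.55 to 54.05 FPKM, than in 2iL libraries, at 59.8 to 73.0 FPKM. Acat2, Mrpl18 and Tcp1 were expressed in all libraries and overlapped between media in ESCs. In iPSCs, with no overlap, Acat2 and Tcp1 were higher in OSKM, where 37.2% of all genes were, and Mrpl18 was lower. For Acat2 the lowest OSKM-iPSC value was 52.6 FPKM and the highest 2iL-iPSC value 51.8 FPKM. Snora20, Gm49959 and Gm49926 stayed at or below 1.84 FPKM.

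The wider IGF pathway was followed with a list of 50 other genes (further ligands, binding proteins, proteases, adaptors, PI3K, AKT, mTOR and FOXO genes), of which 42 passed the filter in the ESC comparison of media. Between OSKM-ESCs and 2iL-ESCs, 21 were called higher and 8 lower (limma with day as covariate, adjusted p under 0.05), where 29.5% of all genes were higher and 24.4% lower. The median difference of the list was 0.25 on the log2 scale, against 0.03 over all genes tested. The list was drawn up with earlier results of these data known. Its counts, median and p-values therefore describe these genes and are not independent evidence. The insulin genes Ins1 and Ins2 were at or near 0 everywhere.

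Grb10, an imprinted adaptor that binds and restrains the insulin and IGF1 receptors, was the gene called higher by most, with a log2 difference of 2.75 ± 0.11 (SE, n = 6 and 6, adjusted p = 3.0e-09). It was at 41.3 to 74.2 FPKM in OSKM-ESCs, 6.01 to 11.2 FPKM in 2iL-ESCs, 63.8 and 13.9 FPKM in OSKM-iPSC clones 1 and 3, 2.97 and 5.37 FPKM in 2iL-iPSCs, and 314 and 299 FPKM in MEF cells. Others called higher were the receptor substrate Irs2 (1.55 ± 0.15), Stc2, an inhibitor of IGFBP proteolysis (0.96 ± 0.32), and Foxo4 (0.95 ± 0.10), with adjusted p-values of 3.7e-06, 0.024 and 9.0e-06. At day 25, however, Stc2 was lower in OSKM-ESCs (6.55 and 6.66 FPKM) than in 2iL-ESCs (7.69 and 7.18 FPKM). Its lowest ESC values were those of 2iL-ESCs at day 18 (1.09 and 1.10 FPKM). The genes called lower by most were Inpp5d, which encodes the lipid phosphatase SHIP1 (-3.13 ± 0.17, adjusted p = 3.6e-08), the zinc finger gene Plagl1 (-1.25 ± 0.27, adjusted p = 0.0020), Igfals, whose product carries IGF complexes in serum (-1.06 ± 0.16, adjusted p = 0.00014), Pdpk1 (-0.63 ± 0.09, adjusted p = 0.00013) and Grb2 (-0.57 ± 0.07, adjusted p = 2.6e-05). Inpp5d was at 0.938 to 4.39 FPKM in OSKM-ESCs and 18.4 to 35.0 FPKM in 2iL-ESCs. In OSKM-iPSC clone 3, at 19.1 FPKM, it stood near the 2iL-iPSCs (23.7 and 22.8 FPKM), while clone 1 was at 4.49 FPKM. The list thus moved in both directions, with activating and restraining genes on either side.

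**Figure D5:**
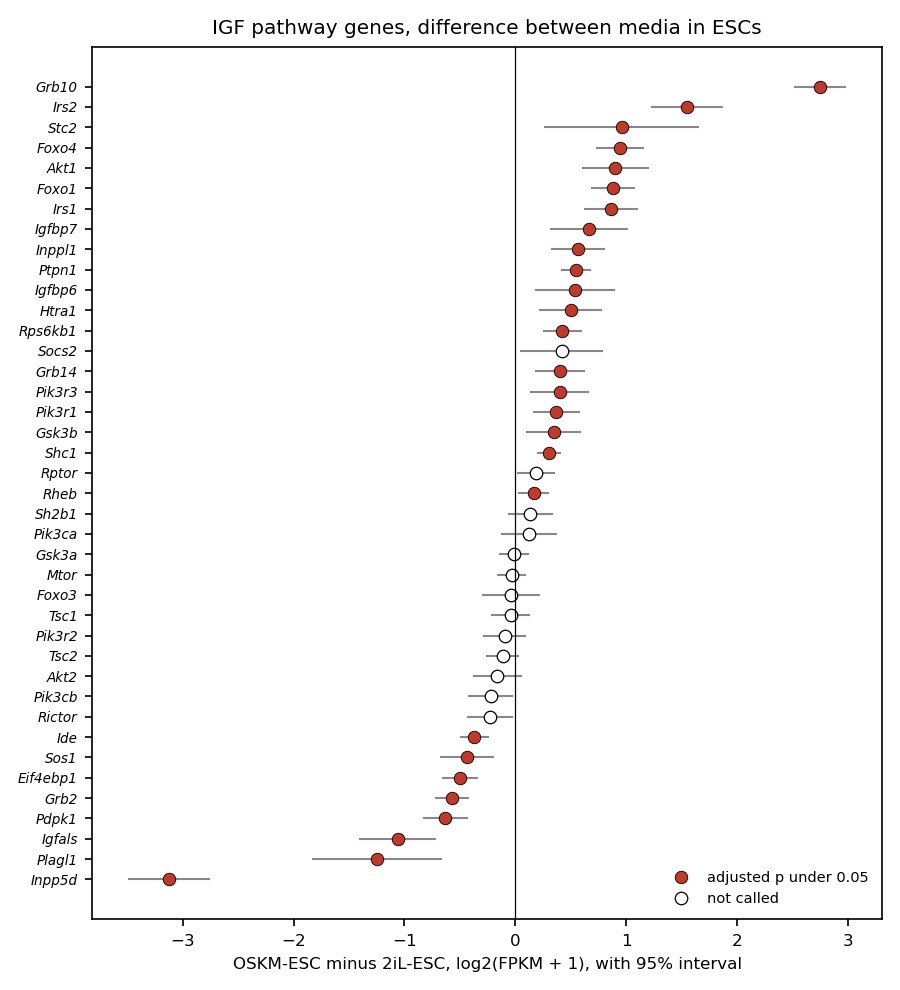
Difference between OSKM-ESCs and 2iL-ESCs in log2(FPKM + 1), with 95% intervals, for the IGF pathway genes tested, of which 2 of 42 are not shown; filled points have an adjusted p under 0.05. Grb10 at 2.75 and Inpp5d at -3.13 stand apart from the other genes shown.

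In iPSCs 5 of the 42 genes tested were called, all higher in OSKM-iPSCs, where 7.96% of all genes were called in either direction: Irs2 (1.81 ± 0.34, SE, n = 2 and 2, limma adjusted p = 0.039), the kinase Akt1 (1.77 ± 0.17, adjusted p = 0.011), Stc2 (1.44 ± 0.26, adjusted p = 0.037), Foxo4 (1.38 ± 0.20, adjusted p = 0.023) and Inppl1 (0.83 ± 0.15, adjusted p = 0.038). The count was 3 without OSKM-iPSC clone 1, 12 without OSKM-iPSC clone 3, 0 without either 2iL-iPSC clone and 0 with no filter on low values. Akt1 was at 46.2 and 40.2 FPKM in OSKM-iPSCs and 12.8 and 11.1 FPKM in 2iL-iPSCs.

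Over the days, 14 of 41 list genes were called in OSKM-ESCs and 18 of 38 in 2iL-ESCs, where 38.6% and 50.8% of all genes were. Among those higher at day 38 than at day 18 in OSKM-ESCs, Plagl1 differed most (1.22, adjusted p = 0.00022), and Mtor (0.62) was among the others, and among those lower, Socs2 (-0.99), Igfbp7 (-0.94) and Igfbp6 (-0.92). Plagl1 was at 6.00 and 6.83 FPKM at day 18, 2.87 and 3.05 FPKM at day 25 and 15.2 and 17.3 FPKM at day 38. Its day 25 values were the lowest of the ESCs, as were those of Igf2 and Igfbp3 within OSKM-ESCs. In 2iL-ESCs Stc2 (2.20, adjusted p = 0.00010), Grb10 (0.70) and Inppl1 (0.68) were higher at day 38, and Htra1 (-0.85) and Pik3r3 (-0.47) lower. Irs2 was also called, with a peak at day 25 and nearly equal levels at days 18 and 38 (-0.03). The interaction of medium and day was called for 16 of 42 (37.9% of all genes). At day 38 against day 18 the OSKM minus 2iL difference was higher by most for Plagl1 (1.01) and also higher for Foxo4 (0.18), and lower by most for Stc2 (-1.81), Inpp5d (-1.11) and Igfbp6 (-1.03). The count in OSKM-ESCs was 6 without culture 1 of day 38 and 8 without culture 2, and that of the interaction 10 without 2iL-ESC culture 1 of day 25.

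Against MEF cells, 25 of 44 list genes tested were lower and 10 higher in 2iL-iPSCs, where 37.4% of all genes were lower and 40.6% higher. In OSKM-iPSCs 15 of 43 were lower and 10 higher, where 26.4% of all genes were lower and 34.0% higher. The lowest in both were the binding protein genes Igfbp7 (-6.75 and -5.97) and Igfbp6 (-6.08 and -5.18), followed by Grb10 in 2iL-iPSCs (-5.93) and Grb14 in OSKM-iPSCs (-3.75). The highest were Inpp5d (3.69), Socs2 (2.44) and Igfals (1.69) in 2iL-iPSCs, and Socs2 (2.61), Inpp5d (2.48) and Foxo4 (2.44) in OSKM-iPSCs. Without MEF library 1 or 2 the counts were 21 and 22 in 2iL-iPSCs and 0 in OSKM-iPSCs. Between OSKM-iPSCs and OSKM-ESCs 0 of 41 were called by limma (6 at an unadjusted p under 0.05), where 1.88% of all genes were. Between 2iL-iPSCs and 2iL-ESCs 3 of 38 were called, where 3.41% of all genes were. The protease gene Htra1 was higher (1.58 ± 0.32, SE, n = 2 and 6, limma adjusted p = 0.031). Eif4ebp1 (-0.67 ± 0.10, adjusted p = 0.011) and Pik3r2 (-0.58 ± 0.09, adjusted p = 0.014) were lower. Without 2iL-iPSC clone 3 or 6 the 3 became 0 and 1.

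A further list held 17 genes: regulators of imprinting, chromatin and RNA, and the transcripts Airn, Mir675 and Igf2os that overlap members of the set. Of these, 14 were tested between media in ESCs. In OSKM-ESCs 6 were called higher and 5 lower, where 29.5% of all genes were higher and 24.4% lower. Lower were the imprint-protecting genes Dppa3 (-1.81 ± 0.11, SE, n = 6 and 6, limma adjusted p = 1.1e-07) and Zfp57 (-1.04 ± 0.12, adjusted p = 1.2e-05), Trim28, which acts with Zfp57 (-0.42 ± 0.12, adjusted p = 0.012), Plagl1, and the RNA-binding protein gene Igf2bp1 (-0.27 ± 0.09, adjusted p = 0.029). Higher were Lin28b (1.59 ± 0.10, adjusted p = 1.6e-07) and Lin28a (1.42 ± 0.21, adjusted p = 0.00012), whose products bind let-7 precursors, Igf2os (0.91 ± 0.12, adjusted p = 4.0e-05), the Igf2 mRNA-binding gene Igf2bp3 (0.71 ± 0.08, adjusted p = 1.3e-05), Hmga1 (0.38 ± 0.08, adjusted p = 0.0023) and Zfp445 (0.24 ± 0.06, adjusted p = 0.0055). The insulator factor Ctcf was not called (-0.14 ± 0.09, adjusted p = 0.21). In iPSCs, Zfp57 (-1.34) and Trim28 (-0.86) were again lower and Lin28a (0.73) higher in OSKM, the 3 genes called of 16 tested, where 7.96% of all genes were called. Dppa3 was at 8.20 to 13.8 FPKM in OSKM-ESCs and 35.5 to 46.0 FPKM in 2iL-ESCs. OSKM-iPSC clones 1 and 3 had 25.5 and 51.8 FPKM of it, and 2iL-iPSC clones 3 and 6 had 43.1 and 34.6 FPKM. Between OSKM-iPSCs and OSKM-ESCs 3 of 16 tested were called (1.88% of all genes), Dppa3 (1.62) and Mir675 (1.22) higher and Hmga1 (-1.56) lower, and between 2iL-iPSCs and 2iL-ESCs 1 of 13 (3.41% of all genes), Hmga1 (-1.09). The interaction of medium and day was called for 8 of 14, where 37.9% of all genes were. Against MEF cells 14 of 16 were called in 2iL-iPSCs and 14 of 16 in OSKM-iPSCs, where 78.0% and 60.3% of all genes were. The list was drawn up with earlier results of these data known, so nothing is read from its counts. Reads of Igf2os, Mir675 and Airn cannot be told apart from those of Igf2, H19 and Igf2r, which they overlap.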

How the data were processed

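RNA was sequenced as NEBNext Ultra poly(A) libraries without strand marking from 18 mouse samples. Per the labels and the study's methods, the authors aligned reads to GRCm38 (mm10) with STAR 2.7.1a and used StringTie 2.0 for gene values; the processing notes also name Cuffdiff 2.2.1. The deposited tables give FPKM, TPM and mean coverage per gene, the authors' own normalized values, and no read counts, so depth in reads is unknown and no count test was run. The deposited TPM was usable in 16 libraries and recomputed from FPKM in the other 2. Comparisons of groups and days used limma 3.58.1 (R 4.3.3; lmFit, eBayes with trend) on log2(FPKM + 1), which understates changes of low genes, over genes with FPKM over 1 in at least 1 library compared. P-values were adjusted by Benjamini-Hochberg over all genes tested, with a threshold of 0.05. Tables used Python 3.11.15, pandas 2.3.3 and numpy 2.4.6. The fits were tested on simulated data. Of the gene identifiers, 2 with a failed value were left out.

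The members and lists were chosen with earlier results of these data known. Genes named are the 10 members; of the IGF pathway list, the 5 called higher and 5 called lower by most between media in ESCs and 3 of each elsewhere; regulators called between media in ESCs; genes within 250 kb of the span from H19 to Igf2 or of Igf2r with FPKM over 1; and the genes most like Igf2 and H19. Of the genes this rule selects, 2 are not reported here. Some marker genes, and regulators in other comparisons, were named after their values were seen. Alternatives changed the pseudocount, filter, scaling, unit, model, cutoff and libraries.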

Additional observations from a re-analysis of the deposited data

Results flagged for a closer look

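For 8 genes the size of the OSKM minus 2iL difference in ESCs depended on the day by limma's test of the interaction, where 37.9% of all genes tested did. The genes were chosen with such differences in view, so nothing is read from the count. The adjusted p was 3.04e-05 for Igfbp4, 0.000202 for Igfbp5, 0.000759 for Igfbp2, 0.00207 for Igfbp3, 0.0190 for H19, 0.0205 for Insr, 0.0266 for Igf1r and 0.0327 for Igf2r. Among the 6 OSKM-ESC cultures, 1 value of Igf1 lay far from the others, with a gap of 0.687 of the whole range, at 0.226 FPKM in culture 1 of day 25. The cutoff used is one that about 1 of 20 groups of normally distributed values would pass. That rate does not apply to this value. The 6 cultures pool the days, 2 of them were at 0, all lay near the floor, and other genes were scanned too.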

How the results depend on the processing

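Over the alternatives, the difference between media in Igf2 ranged from 3.04 to 5.63 in ESCs and from 2.94 to 4.87 in iPSCs (log2 scale), and that in H19 from 2.18 to 2.73 and from 3.599 to 5.04. H19 was not fitted in ESCs after the fibroblast share was taken off, since it was then 0 in every ESC library. Of the counts of genes called, 242 values stayed within 1.5 times the main count and 38 did not. The thresholds of the study's cutoff, a fold over 2 and an unadjusted p under 0.05, were also applied to the limma results. The study itself used them with Cuffdiff. For the tests over days and of the interaction, the fold was taken as the range over the days. The IGF pathway list then had 10 genes called between media in ESCs in place of 29, and 9 in place of 5 in iPSCs. It had 3 in place of 14 over days in OSKM-ESCs, 2 in place of 18 in 2iL-ESCs and 6 in place of 16 for medium by day. Between OSKM-iPSCs and OSKM-ESCs it had 2 in place of 0. The members other than Igf2 then had 4 in place of 7 over days in OSKM-ESCs, 2 in place of 6 in 2iL-ESCs and 4 in place of 8 for medium by day. A single fit of all 9 groups gave 19 list genes between media in iPSCs, 7 for medium by day (2 members), 10 between OSKM-iPSCs and OSKM-ESCs (3 members) and 7 between 2iL-iPSCs and 2iL-ESCs (2 members). Quantile normalization gave 2 list genes between media in iPSCs and 5 members for medium by day, and no filter gave 0 list genes in iPSCs. The cause was not tested.

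Leaving out 1 library at a time gave 25 to 29 list genes between media in ESCs, 0 to 12 in iPSCs, 6 to 15 over days in OSKM-ESCs, 13 to 18 in 2iL-ESCs, 10 to 18 for medium by day, 21 to 37 between 2iL-iPSCs and MEF cells, 0 to 32 between OSKM-iPSCs and MEF cells, 0 to 1 between OSKM-iPSCs and OSKM-ESCs and 0 to 4 between 2iL-iPSCs and 2iL-ESCs. It gave 5 to 7 members over days in OSKM-ESCs, 5 to 8 for medium by day and 0 to 7 between OSKM-iPSCs and MEF cells. A group left with 1 library was assumed to vary like the others.

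Culture numbers did not pair the cultures (correlations of deviations from -0.032 to 0.14). With the replicate block the list had 25 genes between media in ESCs, 11 and 17 over days in OSKM-ESCs and 2iL-ESCs and 14 for medium by day, and the members 7, 6 and 6 in the last 3.

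Some differences that no test called changed sign. From day 18 to day 38 in OSKM-ESCs, Igfbp2 became 0.059 with quantile normalization, 0.056 with TPM and ranged from -0.19 to 0.13 without single libraries, and Igf2, which was not tested, became 0.029 with TPM and ranged from -0.17 to 0.062. Igfbp3 ranged from -1.72 without clone 1 to 0.60 without clone 3 between OSKM-iPSCs and MEF cells. Between OSKM-iPSCs and OSKM-ESCs, Insr became -0.072 with quantile normalization and ranged from -0.064 to 0.15 without single libraries, Igfbp3 from -1.08 to 1.24, Igf1r from -0.42 to 0.76, Igfbp4 from -0.55 to 0.85 and Igfbp5 from -1.05 to 0.52, with clones 1 and 3 at the ends. Between 2iL-iPSCs and 2iL-ESCs, Igf2r became -0.0016 with TPM and ranged from -0.10 to 0.072 without single libraries. Without day 38 and with coverage in place of FPKM were chosen after seeing the data.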
